A study of Mus musculus with 4 samples.

Results

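Natural killer (NK) cells were followed in single-cell RNA-seq of dissociated mouse ovaries. A cell was taken as an NK cell when it had unique molecular identifiers (UMIs, each a tag for a single captured mRNA) of at least 2 of the 6 genes Ncr1, Klrb1c, Klre1, Gzma, Prf1 and Nkg7, no UMI of the T cell receptor subunits Cd3d, Cd3e or Cd3g, under 3 UMIs of the macrophage genes C1qa, C1qb and C1qc together, and under 10 UMIs of the granulosa genes Inhba and Amh per 10000. By this rule 458 of the 47782 cells that passed the cell filters were NK cells. They numbered 69 of 8780 and 194 of 24320 cells in the libraries labelled Fosl2F/F, and 90 of 7175 and 105 of 7507 cells in those labelled Fosl2cKO.

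All 4 libraries came from ovaries of 8-week-old female littermates with floxed Fosl2 alleles on both chromosomes. Fosl2cKO mice also carried Cre under the Cyp19a1 promoter, the aromatase promoter, which drives it in granulosa cells. Fosl2 encodes a subunit of the AP-1 transcription factor. The study gives as many mice as libraries for each genotype, but the labels do not tie an animal to a library, so p-values measure the spread between these libraries. In granulosa-class cells, chosen by Inhba and Amh, Fosl2 stood at 176 and 180 CPM (UMIs of the gene per 1000000 UMIs of the class) in Fosl2F/F and at 197 and 106 CPM in Fosl2cKO. In CPM, the first library labelled Fosl2cKO was thus not below the control libraries in the targeted gene. With every cell thinned to 1000 UMIs, Fosl2 was seen in 16.6% and 16.7% of these cells in Fosl2F/F and in 15.2% and 10.2% in Fosl2cKO. The study describes loxP sites around the coding sequence of Fosl2, and how far this removes the stretch that 3′ reads fall in is not shown by the counts. The genotypes are named below by their labels only.

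NK cells are lymphocytes that kill target cells without a rearranged antigen receptor. They balance activating against inhibitory receptors, many of which are C-type lectins encoded side by side in a gene complex, and release perforin and granzymes from granules when activation prevails. In tissues they share features with other innate lymphocytes that stay in place, and in the ovary leukocytes of this kind are found in the stroma, around follicles and in corpora lutea.

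Summed per library, the 13 listed NK markers outside the rule stood at 2149 to 5437 CPM in the 458 cells. In the other cells they stood at 13.2 to 22.8 CPM. They were unevenly spread: clusters 2, 4 and 8, described below and led by genes of other cell types, were at 853, 1470 and 558 CPM. These held 41, 64 and 22 of the cells. Summed over the libraries, the 6 genes were the selection itself and are given only as a description: Nkg7, a granule membrane protein, had a UMI in 428 of the 458 cells, Klrb1c (NK1.1) in 324, Klre1 in 322, granzyme A (Gzma) in 310, Ncr1 (NKp46) in 294 and perforin (Prf1) in 253. At the border of the rule, the 69 cells with exactly 2 of the 6 genes were the members just inside. In the 4 libraries, a UMI of the pan-leukocyte gene Ptprc was present in 100%, 87.3%, 100% and 40% of the cells with 2 genes, in the order Fosl2F/F replicates 1 and 2, Fosl2cKO replicates 1 and 2, against 7.04%, 17.0%, 6.03% and 9.35% of the otherwise eligible cells with 1 gene, just outside. The last of the values inside rests on 5 cells with a median of 35872 UMIs.

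Markers of other leukocytes were present at various levels. The 10 macrophage markers summed to 36.0 to 104 CPM in NK cells of the 4 libraries and to 289 to 746 CPM in the other cells, but the list holds the C1q genes that the rule limits. The 9 dendritic cell markers summed to 102 to 284 CPM against 478 to 637 CPM, with Flt3, Xcr1, Cd209a and Siglech at 0 in NK cells. The 6 B cell markers were higher in NK cells, at 29.8 to 77.5 CPM against 10.9 to 19.0 CPM, most of it from Ighm, the immunoglobulin heavy chain transcript, while Ms4a1 had no UMI.

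T cell markers summed to 216 to 609 CPM in NK cells and to 1718 to 4198 CPM in T cells, whose Cd3 genes are part of the rule. Of the neutrophil genes Retnlg, Csf3r and Cxcr2 had no UMI in any NK cell and the list summed to at most 1.99 CPM. Of the mast cell genes Cpa3, Mcpt4, Tpsb2 and Fcer1a had none and the list summed to at most 1.18 CPM. With every cell thinned to 1000 UMIs, Ncr1 was seen in 37.7%, 26.3%, 41.1% and 45.7% of NK cells and in at most 0.0657% of granulosa-class cells, which should lack it. Ncr1 is a gene of the rule, so its share in NK cells is a description and no check of the class.

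The second Fosl2F/F library stood apart and touches every comparison between genotypes. Its NK cells had a median of 2009.5 UMIs against 3149, 3384.5 and 3858 in the others. It also held 72 of the 92 NK cells marked as doublets, those with the highest scores from the doublet caller Scrublet. The number marked was set by library size, at 0.8% of cells per 1000 cells. Of all cells, 19.5% were thus marked in this library and 5.74% to 7.03% in the others. Doublets were marked and not removed, because their removal was one of the alternatives. Markers of granulosa, stroma, theca and luteal cells, endothelium, pericytes and epithelium made up a median of 16.7, 33.2, 10.3 and 8.06 UMIs per 10000 in the NK cells of the 4 libraries, and 65 of the 84 NK cells above 50 per 10000 came from the second Fosl2F/F library. Several values between genotypes are therefore given with and without these 84 cells. No barcode was an NK cell in 2 libraries, although pairs of libraries shared 15 to 81 barcodes.

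**Figure D1:**
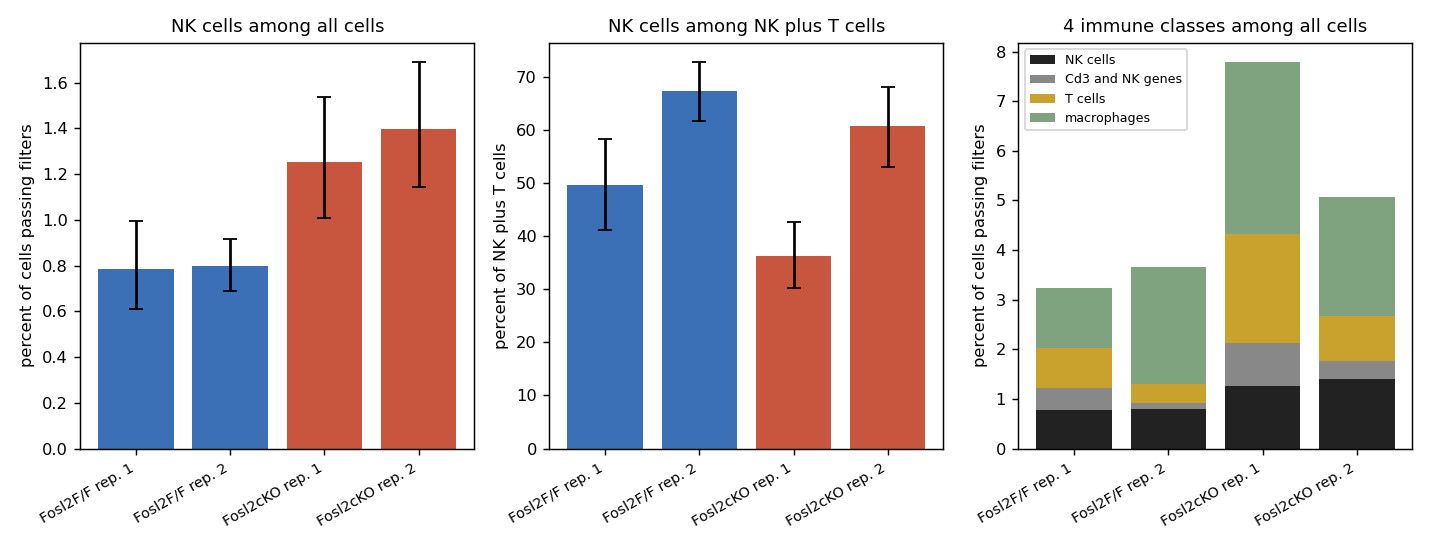
NK cells in the 4 libraries as a percentage of all cells passing filters (left), as a percentage of NK plus T cells (middle) and stacked with T cells, cells with both Cd3 and NK genes, and macrophages (right). Bars are libraries and error bars exact binomial 95% intervals for counting error only. NK cells were 0.786% and 0.798% of Fosl2F/F cells and 1.25% and 1.40% of Fosl2cKO cells, while their share of NK plus T cells overlapped between genotypes.

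NK cells took a larger share of the cells in both libraries labelled Fosl2cKO. They were 0.786% (exact binomial 95% interval 0.612 to 0.994) and 0.798% of all cells in Fosl2F/F, and 1.25% and 1.40% in Fosl2cKO, that is 0.792% ± 0.00836 against 1.33% ± 0.102 (SD, n = 2 libraries each). The groups did not overlap and the ratio was 0.74 on the log2 scale. The exact two-sided permutation p was 0.33, the smallest that 2 against 2 libraries allow, so the design cannot reach 0.05. With Trac, Trbc1 and Trbc2 also required to be absent the groups overlapped and the log2 ratio was 0.35. Without the NK cells rich in somatic markers the shares were 0.635% ± 0.148 and 1.22% ± 0.0957, with a log2 ratio of 0.95.

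By the UMI rules used here, T cells and macrophages were also higher in both libraries labelled Fosl2cKO. T cells, taken as cells with at least 2 Cd3 UMIs and under 2 of the 6 NK genes, were 0.797% and 0.387% of cells in Fosl2F/F and 2.20% and 0.906% in Fosl2cKO. Macrophages, with at least 10 C1q UMIs, were 1.22% and 2.35% against 3.46% and 2.38%, by a fixed cut of 10 UMIs that also applied to the second Fosl2F/F library, whose cells had a median of 3970 UMIs against 11380 to 12885 in the others. The T cell groups overlapped when the rule was applied to cells thinned to 1000 UMIs, with 56 of 8780 cells in the first Fosl2F/F library and 43 of 7507 in the second Fosl2cKO library, and with mitochondrial UMIs under 5%. Cells with both Cd3 and NK genes overlapped, at 0.444% and 0.115% against 0.878% and 0.373%. Granulosa-class cells, part of the denominator, were 3321 of 8780 and 3044 of 24320 cells in Fosl2F/F, and 797 of 7175 and 935 of 7507 in Fosl2cKO. With them left out NK cells were 1.26% and 0.912% against 1.41% and 1.60%. Granulosa cells below the Inhba and Amh cut stayed in, and the effect of the make-up of the other cells on these shares was not tested.

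Within the immune cells, NK cells did not hold a larger part in Fosl2cKO. They were 49.6% and 67.4% of NK plus T cells in Fosl2F/F and 36.3% and 60.7% in Fosl2cKO, with a log2 ratio of -0.27 and an exact permutation p of 0.667. Of the 4 immune classes counted (NK, T, cells with both sets of genes, and macrophages), they were 24.2% and 21.8% against 16.1% and 27.6%. In both measures the libraries of a genotype spread further than the genotypes lay apart.

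NK cells were next compared with T cells of the same libraries, the nearest population by lineage, to describe what they expressed. Cells with a Cd3 UMI and at least 2 of the 6 NK genes were in neither class. They numbered 39 and 28 in Fosl2F/F and 63 and 28 in Fosl2cKO. The comparison is thus not with all T cells, and levels of genes expressed along with the 6 genes depend on this choice. UMIs were summed per library and class, and edgeR's quasi-likelihood test with the library as a block called a gene at a Benjamini-Hochberg adjusted p under 0.1 and a log2 fold over 0.25. Of 6951 genes tested, 178 were higher in NK cells (2.56%) and 227 lower (3.27%). In all, 5.83% of genes were called. The genes that define the classes were left out, and since both classes were chosen from expression in these cells the p-values say only that a difference recurred over the 4 libraries. All 12 tested NK markers outside the rule were higher, and all 8 tested T cell markers were lower. Some of them could enter the test only through the class where they are high. Klra4 and Klra8 had no UMI in T cells, and Cd5 and Cd8a none in NK cells. These counts are therefore a description and no support for the classes.

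**Figure D2:**
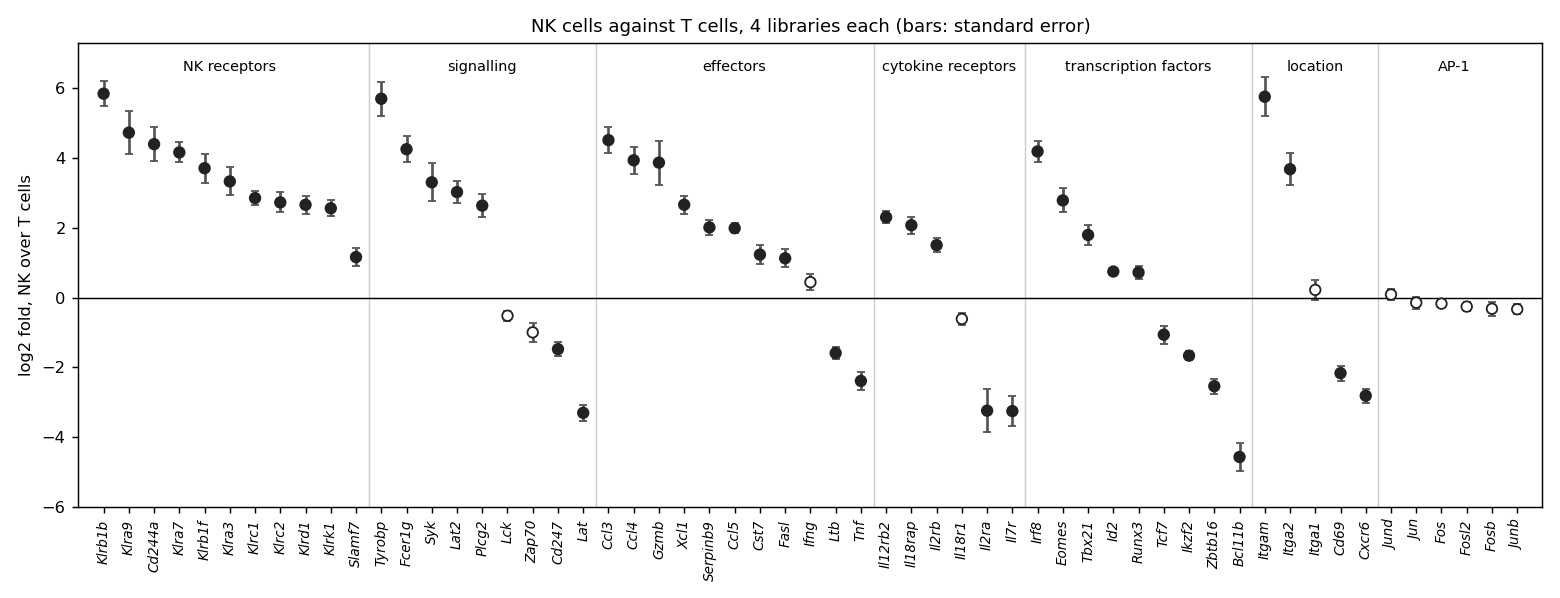
Log2 fold of NK over T cells for genes grouped by role, with standard errors from edgeR over 4 libraries. Filled points passed an adjusted p of 0.1 and a log2 fold of 0.25 and open points did not. Lectin receptors, Tyrobp and Fcer1g, the CC chemokines, Irf8 and Itgam lie high, Bcl11b and Lat lie low, and the AP-1 genes lie near 0 with no call.

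Of the Ly49 receptors, which read MHC class I on other cells, both activating genes tested, Klra4 and Klra8 (Ly49D and Ly49H), were higher in NK cells. Klra4 (chr6:130043731-130067271) was at 183, 89.4, 282 and 215 CPM in NK cells of the 4 libraries, and Klra8 (chr6:130115226-130129898) at 238, 89.4, 238 and 222 CPM. Neither had a UMI in any T cell, which puts both at least 117-fold higher in NK cells when 3 UMIs over all T cells are taken as the floor. The second Fosl2F/F library was the lowest for both genes.

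Among the inhibitory Ly49 genes, 3 of 4 tested were higher in NK cells: Klra3, Klra7 and Klra9. Klra7 (Ly49G) averaged 167 ± 72.1 CPM in NK cells and 8.69 ± 7.03 CPM in T cells (SD, n = 4), a log2 fold of 4.16 ± 0.29 (SE). Klra1 (Ly49A), at 42.5 ± 13.2 against 32.1 ± 20.6 CPM, did not pass the test. Ly49 genes are near-identical copies of each other, and how reads between copies were shared out cannot be seen in the counts, so levels of single Ly49 genes are uncertain.

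All 7 other lectin receptors tested were also higher. Klrb1b (NKR-P1D, an inhibitory receptor) was at 459, 211, 399 and 314 CPM in NK cells and between 0 and 12.6 CPM in T cells, with a log2 fold of 5.84 ± 0.36 and an adjusted p of 0.000202. The heterodimer partner Klrd1 (CD94) was at 614, 193, 407 and 417 CPM against 117, 49.3, 59.8 and 26.5 CPM. Its partners Klrc1 (NKG2A, inhibitory) and Klrc2 (NKG2C, activating) were higher by 2.85 and 2.73, and the activating receptor Klrk1 (NKG2D) by 2.56, on the log2 scale. In each of these genes the lowest NK library lay above the highest T library. The 24 listed Klr genes lie on chromosome 6 between 122270596 and 131247362 (GRCm38), the NK gene complex and its surroundings.

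Of the 8 immunoglobulin-type and SLAM receptors tested, 2 were higher and 2 lower. Cd244a (2B4), which binds CD48 on neighbouring cells, averaged 81.7 ± 19.4 CPM in NK cells and 2.59 ± 3.66 CPM in T cells, and Slamf7 80.4 ± 27.7 against 33.3 ± 14.8 CPM. Pdcd1 (PD-1) was lower, at 8.30 ± 6.63 against 73.1 ± 42.7 CPM, as was Cd226 by 0.68 on the log2 scale. The calls for Cd226 and Slamf7 were lost with DESeq2 and in several of the other alternatives.

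The adaptor Tyrobp (DAP12), which carries the signal of activating Ly49 receptors, was at 786, 328, 621 and 546 CPM in NK cells and at 0, 13.0, 19.9 and 0 CPM in T cells. Fcer1g, the Fc receptor gamma chain used by Ncr1, averaged 1224 ± 523 against 58.6 ± 27.3 CPM. With the kinase Syk, Plcg2 and the adaptor Lat2, 5 of the 15 tested signalling genes were higher, by 2.64 to 5.69 on the log2 scale.

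Lat and Cd247, both parts of T cell receptor signalling, were the 2 that were lower. Lat averaged 17.4 ± 9.47 against 159 ± 63.5 CPM and Cd247 (CD3 zeta) 115 ± 30.4 against 313 ± 101 CPM. Zap70, at 37.4 ± 13.9 against 73.5 ± 33.8 CPM, missed the threshold with an edgeR adjusted p of 0.104. Transcripts of the T cell receptor beta constant regions were not absent from NK cells: Trbc1 or Trbc2 had a UMI in 208 of the 458 cells and Trac in 24. The share with Trbc1 or Trbc2 was 73.9%, 22.2%, 52.2% and 63.8% in the 4 libraries. Transcripts from this locus without a rearranged receptor are known in NK cells, but T cells whose Cd3 transcripts were missed would also enter the class. Which of these applies was not tested. With cells thinned to 1000 UMIs, Cd3e was seen in 51.9% to 58.6% of T cells. These T cells were chosen by at least 2 Cd3 UMIs, so this share does not measure how often Cd3 was missed. Requiring no Trac, Trbc1 or Trbc2 UMI in NK cells left 97 genes higher and 169 lower.

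The killing machinery and the CC chemokines were the next groups. Of 12 granule and death-ligand genes tested, 6 were higher and 1 was lower. Granzyme B (Gzmb, chr14:56258838-56262260) was at 589, 205, 1034 and 525 CPM in NK cells and at 139, 31.1, 15.5 and 8.82 CPM in T cells, with a log2 fold of 3.87 ± 0.63 and an adjusted p of 0.0101. Serpinb9, which protects a killer cell from its own granzyme B, was higher by 2.01, and Fasl by 1.13, a call lost with DESeq2. Srgn, the proteoglycan core of the granules, was lower by 0.56, and this direction turned (0.046) without the NK cells rich in somatic markers.

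Ccl3, Ccl4, Ccl5 and Xcl1 were the 4 of 9 cytokine genes that were higher. Ccl4 was at 3096, 1169, 2017 and 1743 CPM in NK cells against 123, 117, 259 and 26.5 CPM in T cells. Xcl1, which draws cross-presenting dendritic cells, was at 1516, 602, 338 and 695 CPM against 192, 77.8, 105 and 64.7 CPM. Ifng did not pass the test, with 177 ± 72.1 CPM in NK cells and 126 ± 53.8 CPM in T cells. Tnf, Ltb and the tissue-repair ligand Areg were lower, by 2.39, 1.59 and 3.86.

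The promoters of 5 called genes in these groups held the letters TGACTCA, the core AP-1 element, on either strand. They are shown because Fosl2, the gene floxed in these mice, encodes an AP-1 subunit. The windows below are RefSeq promoter sequence (GRCm38.p6, from 250 bases before to 50 after the gene's start), printed 5′ to 3′ on the gene's strand with the element in capitals. That of Gzmb begins 58 bases and that of Slamf7 42 bases before the start, that of Cd244a 122 bases before it and that of Klrk1 17 bases after it, all counted from the RefSeq start. Klrc2 has RefSeq starts that put its element at the start or 41 bases after it. The RefSeq starts of Klrc2 and Slamf7 lie inside the genes as GENCODE draws them (chr6:129647496-129660689 and chr1:171632403-171653035).
Gzmb, chr14:56262377-56262401, minus strand: gtggttctcTGAGTCAttcgctgtg
Klrk1, chr6:129623832-129623856, minus strand: tgaaggcttTGACTCAcaagaaaca
Slamf7, chr1:171649026-171649050, minus strand: aacgtgagaTGACTCAttgtaacaa
Cd244a, chr1:171559062-171559086, plus strand: ggttttttgTGAGTCActgtgcact
Klrc2, chr6:129660540-129660564, minus strand: caagagtcaTGAGTCAcctgcttgg
The letters occurred in 12 of the 135 genes higher in NK cells that had a promoter in the table (8.89%), in 6 of 159 lower genes (3.77%), in 247 of 5550 tested genes (4.45%) and in 5.95% of all 27025 genes with a promoter. These counts describe letters and say nothing of binding.

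A T-box element, AGGTGTGA on either strand, was searched because Eomes and Tbx21 are T-box factors. It was in 1.48% of all promoters and, among the 6 genes of the rule, only in that of Nkg7, beginning 14 bases before the RefSeq start, which lies inside the gene as GENCODE draws it (chr7:43437073-43438249).
Nkg7, chr7:43437115-43437140, plus strand: gggtagggaAGGTGTGAgaagaatca
Of the genes higher in NK cells, 3 of 135 held it (2.22%), against 2 of 159 lower genes (1.26%).

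Of 21 transcription factors tested, 5 were higher and 7 lower than in T cells. Eomes (chr9:118478212-118486132), which NK cells need to mature, was at 60.9, 32.9, 109 and 70.4 CPM against 6.30, 7.78, 18.8 and 2.94 CPM, a log2 fold of 2.78 ± 0.34. Its relative Tbx21 (T-bet) was higher by 1.79, Irf8 by 4.19 and Id2, which holds innate lymphocytes to their lineage, by 0.75. Runx3 was higher by 0.72, a call that turned in sign (-0.062) when cells with a Trac or Trbc UMI were left out.

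Among the 7 lower factors, Bcl11b averaged 7.39 ± 3.72 against 193 ± 77.7 CPM, and Zbtb16 (PLZF), typical of innate-like T cells, 57.8 ± 19.4 against 336 ± 157 CPM. Tcf7, Ikzf2, Ikzf3, Ets1 and Maf were the other 5. The T cells of these ovaries carried transcripts of interleukin 17 and of gamma-delta receptors, as Il17a stood at 412 ± 250 CPM and Trdc at 221 ± 107 CPM in them. Il17a had no UMI in any NK cell, which puts it at least 343-fold higher in T cells against a floor of 3 UMIs over all NK cells. The comparison thus sets NK cells against this mix of T cells.

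Of the cytokine receptors, Il12rb2 and Il18rap, which take the signals of interleukins 12 and 18, were higher in NK cells by 2.30 and 2.07, and Il2rb, which also serves interleukin 15, by 1.50. Il2ra was lower, at 12.7 ± 8.36 against 128 ± 89.6 CPM, as were Il21r, Tgfbr2 and Stat5b. In all, 3 of 16 genes of this list were higher and 4 lower. Il7r, the interleukin 7 receptor and one of the markers of other innate lymphoid cells, was also lower, at 69.2, 31.8, 25.8 and 16.6 CPM in NK cells and at 337, 117, 425 and 459 CPM in T cells.

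Of 12 maturation and circulation genes tested, 5 were higher in NK cells and 7 were not called, and of 8 residency genes 2 were higher and 4 lower. Itgam (CD11b) was at 47.0, 28.2, 99.3 and 65.3 CPM in NK cells and at most 2.59 CPM in any T cell library, and Itga2 (CD49b, chr13:114833081-114932100) at 108, 77.6, 234 and 164 CPM against 0 to 20.8 CPM. The residency genes Cxcr6 and Cd69 were lower, by 2.81 and 2.16, while Rgs1 and Cd7 were higher by 1.02 and 1.74. Itga1 (CD49a) did not pass the test, at 79.2 ± 16.6 against 65.9 ± 26.4 CPM. Genes outside the lists that rose furthest were Eya1, Serpinb9b, Adamts14 and Aoah, of which Eya1 was at 60.9 to 119 CPM in NK cells and at most 3.15 CPM in T cells.

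None of the 16 tested AP-1 and immediate early genes passed the test between NK and T cells, and none of 7 MHC class I genes or 10 cell cycle genes did. Fosl2 was at 141, 271, 268 and 238 CPM in NK cells and at 192, 278, 287 and 297 CPM in T cells, with overlapping ranges and an adjusted p of 0.489. The median log2 fold of the AP-1 list was -0.23, beside -0.00475 over all genes tested.

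Against all the other cells, 1888 of 18094 genes were higher in NK cells (10.4%) and 2269 lower (12.5%), 23% in all. All 13 NK markers outside the rule, 16 of 16 signalling genes and 7 of 7 MHC class I genes were higher. Markers of other lymphocytes were higher too: 5 of 9 tested T cell markers (Trac, Trbc1, Trbc2, Cd28 and Trat1), Trdc, Tcrg-C4, Il7r and Ighm. So were 3 of 5 epithelial markers, Krt8, Krt18 and Krt19, by 0.89 to 1.19 on the log2 scale, and without the NK cells rich in somatic markers none was higher, with values from -0.79 to -0.01. Against T cells, Krt8 and the granulosa gene Nr5a2 were called higher, by 2.10 and 0.91, and neither was called without those cells (0.86 and 0.49). H2-K1, which presents peptides to killer T cells, averaged 2146 ± 765 CPM in NK cells and 306 CPM elsewhere. Of the 17 AP-1 and immediate early genes, 7 were higher and 4, Fos, Fosb, Jun and Egr1, were lower. Fos averaged 1569 ± 500 CPM in NK cells and 2303 CPM in the other cells, a log2 fold of -0.57 ± 0.12. Fosl2 was not called, at 0.16 ± 0.14 with an adjusted p of 0.491. With DESeq2 and no gene filter, 2331 genes were higher and 1491 lower, and the median log2 fold over the genes tested moved from -0.20 to 0.42. The 4 lower AP-1 genes and the 7 MHC class I genes kept their direction and call there.

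The NK cells were not uniform among themselves. Clustering gave 8 groups, described here by their leading genes with no test, since the same genes made the clusters. The largest, cluster 6 with 112 cells, was led by Rap1gap2, Gzma, Gzmb, Ly6c2, Cma1, Prf1, Klrg1 and Itgam. Cluster 1, with 68 cells, was led by Ctla2a, Plac8, Klra7, Eya1 and Ccr2, and cluster 5, with 86 cells, by Cxcr6, Ctla4, Camk4, Il7r, Cd200r1 and Cd226.

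**Figure D3:**
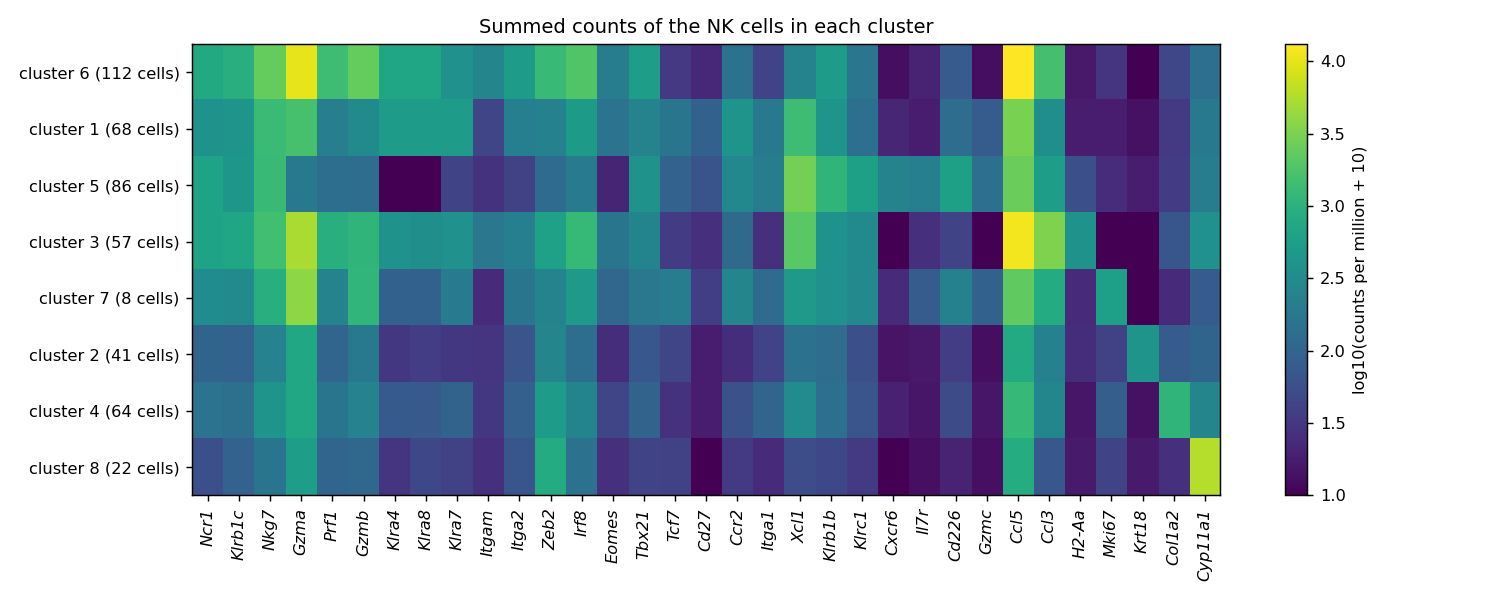
Levels of selected genes in the summed counts of each NK cell cluster, as log10 of CPM plus 10. Cluster 6 is brightest for Gzma, Gzmb, Prf1 and Itgam, cluster 5 is dark for Klra4, Klra8 and Eomes and bright for Xcl1, Cxcr6 and Il7r, and clusters 2, 4 and 8 carry Krt18, Col1a2 and Cyp11a1.

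Clusters 6 and 5 lay at opposite ends. Klra4 and Klra8 were each at 698 CPM in cluster 6 and at 0 in cluster 5, and Eomes at 197 and 11.1 CPM. Gzma stood at 9973 CPM in cluster 6 and 174 CPM in cluster 5, and Itga2 at 507 and 29.6 CPM. Cluster 5 was higher in Xcl1, with 2941 against 239 CPM, in Itga1, with 196 against 32.3 CPM, in Cxcr6, with 240 against 3.23 CPM, and in Gzmc, with 129 against 3.23 CPM. Both held Tbx21, at 395 CPM in cluster 5 and 536 CPM in cluster 6, and Ncr1, at 635 and 785 CPM. Itga1 was also at 173 CPM in cluster 1. Cluster 5 was the highest of the 8 in summed T cell markers, at 1057 CPM, in gamma-delta T cell markers, at 140.4 CPM, and in markers of other innate lymphoid cells, at 236 CPM.

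Cluster 1 was between them for granule genes, with Gzma at 1596 and Gzmb at 291 CPM, and it held Ly49 genes, with Klra4 at 503 CPM against 698 CPM in cluster 6 and Klra7 at 515 against 365 CPM. It was the highest of the 3 in Tcf7, at 153 CPM, Cd27, at 82.5 CPM, and Ccr2, at 397 CPM. Itgam was at 35.4 CPM in it and at 252 CPM in cluster 6. Cluster 7 held 8 cells led by the mitotic genes Ube2c, Cenpf, Mki67 and Birc5.

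The other clusters were led by transcripts of further cell types. Cluster 3, with 57 cells, a median of 1532 UMIs and 40 of its cells from the second Fosl2F/F library, was led by Retnla, H2-Aa, Cd74 and Lyz2, which dendritic cells and macrophages express, beside Ccl4 at 10226 CPM. How many of its cells held these leading genes was not counted. Its NK markers outside the rule summed to 6927 CPM, beside 7083 CPM in cluster 6 and 853, 1470 and 558 CPM in clusters 2, 4 and 8. Scrublet marked 0 of the cells of cluster 3. Clusters 2, 4 and 8 were led by epithelial (Ovgp1, Krt18), stromal and endothelial (Col1a2, Emcn) and luteal (Cyp11a1, Star, Lhcgr) genes. Scrublet marked 31 of 41, 48 of 64 and 12 of 22 of their cells, against 1 of the 331 cells in the other 5 clusters.

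Single cells differed in how many Ly49 genes they showed. No Ly49 gene was detected in 145 of the 458 cells, 1 in 100, 2 in 88, 3 in 82 and 4 or more in 43. Klrc1 was detected in 78 cells that showed no Ly49 gene and in 91 that showed at least 1. Itga2 without Itga1 was seen in 143 cells, Itga1 without Itga2 in 75, both in 35 and neither in 205. These shares depend on depth, and the second Fosl2F/F library had 3 of the 43 cells with 4 or more Ly49 genes.

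Between the genotypes, no gene was called in NK cells. Of 8514 genes tested with edgeR, 0 passed (percent called 0), 233 had an unadjusted p under 0.05 (2.74%), and DESeq2 called 1 gene. The single DESeq2 call, Lcn2, is named after its values were seen. It had 0 UMIs in both Fosl2F/F libraries and 38 and 62 UMIs in Fosl2cKO, and these came from 2 cells and 1 cell, all in cluster 2, the one led by epithelial genes. Plb1, which lies after Fosl2 on the same strand (chr5:32232708-32366520) and is also named after its values were seen, had 0 UMIs in NK cells of both Fosl2F/F libraries and 14 and 29 UMIs in 8 and 10 NK cells of the Fosl2cKO libraries. In the first of these libraries, 0 of the 14 UMIs lay in cluster 2 and 6 lay in a single cell. In the second, 26 of the 29 UMIs lay in cluster 2 and 12 in a single cell. Without the NK cells rich in somatic markers Plb1 was at 0 and 0 against 19.998 and 40.2 CPM. In the second Fosl2cKO library this left out 8 cells, while cluster 2 held 10 of its cells. Cells of cluster 2 thus remained in the last value, which does not show Plb1 in NK cells free of epithelial genes.

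Without any call, groups of genes are described by how many had libraries that did not overlap. Over all genes tested, 15.6% were higher and 14.6% lower in both Fosl2cKO libraries than in both Fosl2F/F libraries. Of the 13 tested genes of maturation and circulation, 8 were higher without overlap, among them Itgam, Spn, S1pr5, Itgal, Itga2 and Itga4, and none lower, with a median log2 fold of 0.63 beside -0.01 over all genes. Of the 20 transcription factors tested, 6 were higher without overlap and none lower. Of 8 residency genes none was, in either direction, and their median was -0.28. Markers of other cell types moved as well. Of the 4 dendritic cell markers tested, 3 (H2-Ab1, H2-Aa and Cd74) were higher without overlap, with a median log2 fold of 1.60 over the 4, and Lyz2, the 1 macrophage marker tested, was higher by 1.65. With cells thinned to 1000 UMIs, the shares of NK cells with H2-Ab1, H2-Aa or Cd74 overlapped. Cd74 was in 2.90% and 8.25% of NK cells in Fosl2F/F and in 10% and 1.90% in Fosl2cKO. H2-Ab1 was in at most 4.44% and H2-Aa in at most 1.90% of the NK cells of a library. Of the 7 granulosa markers tested, 3 were lower without overlap, with a median of -0.74. The medians were -1.25 for 5 theca and luteal, -0.50 for 6 stromal, 0.79 for 5 endothelial, 0.22 for 2 pericyte and 0.16 for 5 epithelial markers. The part of these markers in the maturation result was not tested.

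The NK cells of the libraries also lay in different clusters, which is given as a description since the same genes made the clusters. Cluster 6, led by Gzma, Prf1 and Itgam among others, held 27.5% and 4.12% of NK cells in Fosl2F/F and 55.6% and 33.3% in Fosl2cKO. Cluster 5 held 36.2% and 15.5% against 15.6% and 16.2%. Of the second Fosl2F/F library, clusters 2, 3, 4 and 8 held 12.4%, 20.6%, 26.3% and 9.28%.

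Itga2 was at 108 and 77.6 CPM in NK cells of Fosl2F/F and at 234 and 164 CPM in Fosl2cKO, a log2 fold of 1.07 ± 0.36 with an adjusted p of 0.9997. Itgam was at 47.0 and 28.2 against 99.3 and 65.3 CPM, or 1.12 ± 0.44. The transcriptional repressor Prdm1 was at 16.6 and 23.5 against 55.6 and 49.9 CPM. In these 3 genes the groups lay apart, Prdm1 also without the NK cells rich in somatic markers (20.1 and 39.4 against 80.0 and 51.7 CPM), but the adjusted p did not pass.

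The purity of the cells moved with these values. Ptprc, which every leukocyte expresses, was at 1085 and 770 CPM in Fosl2F/F NK cells and at 1755 and 1346 CPM in Fosl2cKO. Without the 84 NK cells rich in somatic markers it was at 1240 and 1728 against 2331 and 1923 CPM, Itga2 at 131 and 151 against 294 and 190 CPM, and Itgam at 57.0 and 53.8 against 123 and 91.9 CPM. Counted on CPM, the maturation list had 8 of 13 genes higher without overlap both with all NK cells, where 17.8% of all genes were, and without these cells, where 19.6% were. Transcription factors went from 7 higher of 20 to 9 higher and 1 lower, and granule genes, with those of the rule left out, from 2 higher of 14 to 6 higher and 1 lower. Residency genes went from none of 8 to 2 lower, where 15.2% of all genes were lower. Cytokine genes went from none of 9 to 2 lower, and cell cycle genes from none of 10 to 4 lower and 1 higher. The cells left still held members of clusters 2, 4 and 8, which carry genes of other cell types. In the second Fosl2F/F library these clusters had 24, 51 and 18 cells, and 65 cells were left out. In Fosl2cKO they had 3, 4 and 4 cells in the first library, with 7 left out, and 10, 6 and 0 in the second, with 8 left out. The part of other cells' RNA in the remaining difference was not tested.

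**Figure D4:**
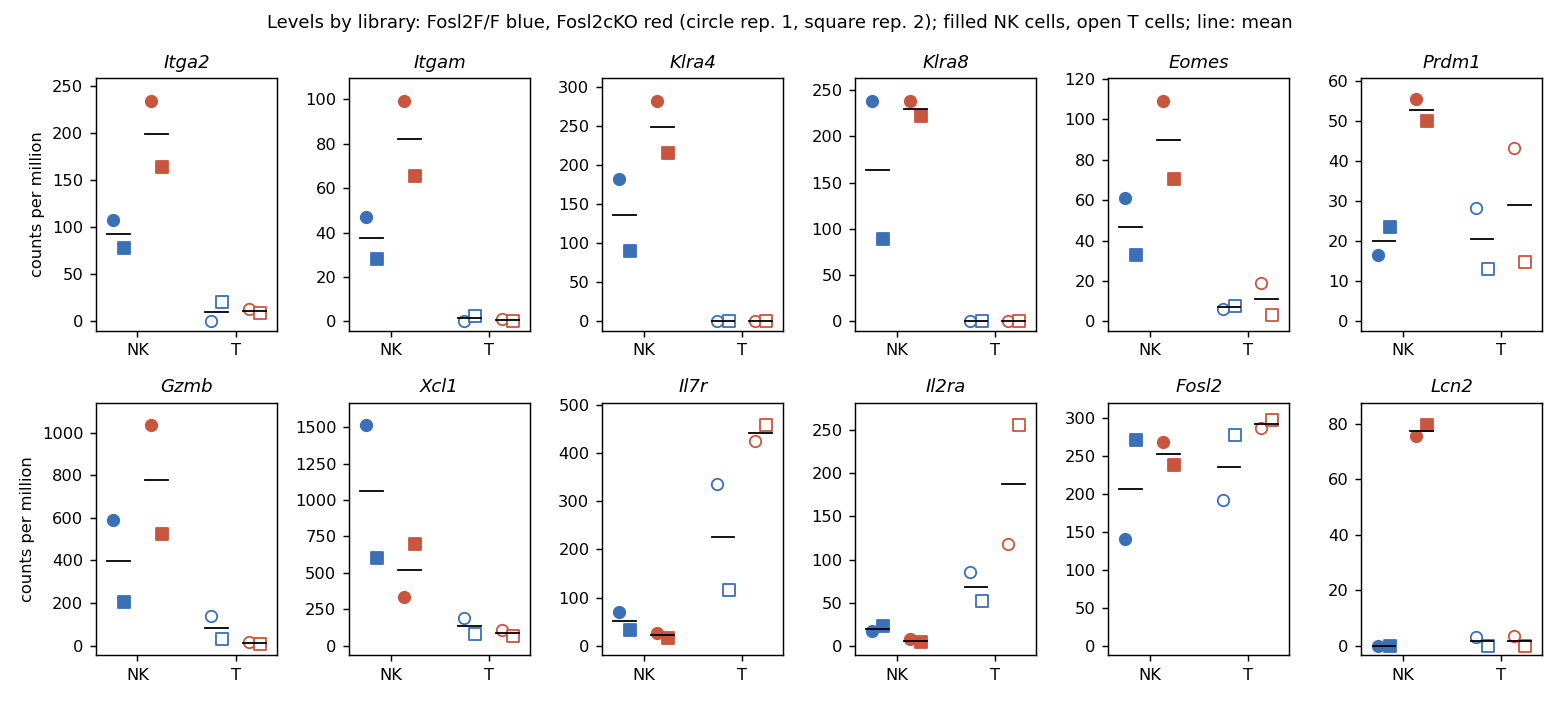
CPM of 12 genes in each library, for NK cells (filled) and T cells (open) of Fosl2F/F (blue) and Fosl2cKO (red), with lines at the means of 2 libraries. Itga2, Itgam, Klra4, Eomes and Prdm1 are higher in both Fosl2cKO libraries, Il7r and Il2ra lower, Gzmb, Klra8, Xcl1 and Fosl2 overlap with all NK cells counted, and Lcn2 has UMIs only in Fosl2cKO NK cells and few in T cells.

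The effector genes spread widely within a genotype when all NK cells were counted. Gzmb was at 589 and 205 CPM in Fosl2F/F and 1034 and 525 CPM in Fosl2cKO, and Xcl1 at 1516 and 602 against 338 and 695 CPM. Without the NK cells rich in somatic markers neither overlapped, with Gzmb at 707 and 477 against 1306 and 726 CPM and Xcl1 at 1636 and 1419 against 480 and 1034 CPM. Klra4 was at 183 and 89.4 against 282 and 215 CPM, and Eomes at 60.9 and 32.9 against 109 and 70.4 CPM. Il7r was at 69.2 and 31.8 against 25.8 and 16.6 CPM, and Il2ra, on 32 UMIs in all, at 16.6 and 22.3 against 7.94 and 3.84 CPM. Without the NK cells rich in somatic markers these 4 genes stayed apart, with Klra4 at 198 and 179 against 363 and 316 CPM, Eomes at 70.4 and 60.9 against 140.0 and 93.9 CPM, Il7r at 77.1 and 93.2 against 34.3 and 24.9 CPM and Il2ra at 20.1 and 50.2 against 11.4 and 5.75 CPM. That set still held cells with genes of other cell types, as given above. Gzma, a gene of the rule, overlapped with all NK cells counted, as it was at 2546 and 882 against 4561 and 1886 CPM.

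Fosl2 itself overlapped between genotypes in NK cells, at 141 and 271 CPM in Fosl2F/F and 268 and 238 CPM in Fosl2cKO, with a log2 fold of 0.25 ± 0.36. Jund was at 1415 CPM in the second Fosl2cKO library and between 163 and 305 CPM in the others, and its T cells (1527 CPM) and granulosa-class cells (1036 CPM) showed the same. Klf2, which governs lymphocyte egress, was also highest in that library, at 429 CPM against 63.6 to 107 CPM, and so it was in T cells (432 against 72.7 to 107 CPM) and granulosa-class cells (127 against 31.5 to 43.8 CPM).

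To take out depth, the cells thinned to 1000 UMIs were used, which left out none, and the share of NK cells with a UMI was compared. Of 133 listed genes, 47 were higher in both Fosl2cKO libraries (background 21.7% of 3723 genes) and 10 lower (14.5%), and without the 6 genes of the rule 42 of 127 were higher and 10 lower. All NK cells were counted here, those rich in somatic markers included. Itga2 was detected in 5.80% and 14.9% of Fosl2F/F NK cells and in 24.4% and 23.8% of Fosl2cKO NK cells, against 0% to 1.06% of T cells and 3.64% to 5.78% of granulosa-class cells. The share in the first Fosl2F/F library was thus close to that of granulosa-class cells. Xcl1 was detected in 50.7% and 38.1% against 21.1% and 46.7%, with overlap. For each gene the exact permutation p cannot go below 0.33.

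The effect of genotype in NK cells was also set against that in T cells. No gene of 8171 was called in edgeR's interaction term (percent called 0), with 250 at an unadjusted p under 0.05, and DESeq2 called 1. Gzmb had the lowest p and was the DESeq2 call, which singles it out after its values were seen. In NK cells it was as given above, while in T cells it was at 139 and 31.1 CPM in Fosl2F/F and 15.5 and 8.82 CPM in Fosl2cKO, and the difference of the effects was 3.66 ± 0.40 on the log2 scale with an edgeR adjusted p of 0.257.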

How the data were processed

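The 4 10x 3′ v3 libraries of ovarian cells (2 Fosl2F/F, 2 Fosl2cKO) were analysed. The deposited values are UMI counts per gene and cell, which the authors made with Cell Ranger against GRCm38. The file headers name a later Cell Ranger version than the study's methods, and the versions differ in whether intronic reads are counted by default, which bears on what a UMI of a gene includes. The study's methods name CellBender and DoubletFinder, but whether these counts precede them is not given in the sources used here. Cells with at least 500 genes, over 1000 UMIs and under 10% mitochondrial UMIs were kept. The cells with the highest Scrublet scores, 0.8% of cells per 1000 cells, were marked as doublets and kept. These cells held 116670912 to 144955216 UMIs per library, and their NK cells 361392 to 850122. UMIs were summed per library and class and tested with edgeR 4.0.16 (quasi-likelihood, filterByExpr, TMM). DESeq2 1.42.0, other filters, cell sets and single libraries left out were the alternatives. Clusters came from scanpy 1.11.5. The exact permutation test was used for shares. Scripts were tested on simulated data with 200 changed genes. The rule, the members and the gene lists were chosen with earlier results of these data known. Genes named are the members of the lists and the 10 furthest changed in each direction among called genes without overlap and with at least 20 CPM. Intervals cover counting error only. A few listed genes are not reported here by name.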

Additional observations from a re-analysis of the deposited data

How the results depend on the processing

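The higher NK share of all cells in libraries labelled Fosl2cKO kept its direction in every setting, with a log2 ratio from 0.35 (no Trac or Trbc UMI, where the groups overlapped) to 1.09 (over 2000 UMIs). The NK share of NK plus T cells turned to 0.053 without the first Fosl2cKO library, and ran from -0.69 to 0.053 with a library left out. Between genotypes in NK cells, 108 genes were called without a gene filter and 1 by DESeq2, and leaving out a library in turn gave 0 to 64 (0 without the first Fosl2F/F library, 20 without the second, 64 without the first Fosl2cKO library and 23 without the second), the lone library then being assumed to vary as the others do. With a library left out, Ccl5 ran from -0.27 (without the first Fosl2cKO library) to 1.18, Klra8 from -0.16 (without the second Fosl2F/F library) to 1.37 and Fosl2 from -0.091 (without the first Fosl2F/F library) to 0.74. A fit with the replicate block called 0 genes, with 230 at an unadjusted p under 0.05, but same-numbered libraries share only a number, and their deviations correlated at 0.0228. For NK against T cells, 870 genes were called without a gene filter, 246 with over 2000 UMIs, 266 without Trac or Trbc UMIs, 708 without NK cells rich in somatic markers (chosen after seeing the data), 196 without the library block, and 211 to 550 with a library left out (261 and 550 without the first and second Fosl2F/F library, 211 and 238 without the first and second Fosl2cKO library). Srgn turned to 0.046 without cells rich in somatic markers and Runx3 to -0.062 without Trac or Trbc UMIs. Over the genes named for this comparison, the other alternatives kept direction and call in 1157 cases and lost the call in 111. For NK against all other cells, 2175 genes were called without Trac or Trbc UMIs and 6253 without cells rich in somatic markers. The genotype effect in NK against T cells gave 66 genes without a filter, 1 with DESeq2, 1 without Scrublet doublets and 0 to 3 with a library left out. The thinned shares gave 57 of 133 listed genes without overlap, and 78 to 105 with a library left out. With all 4 libraries, 21.7% of 3723 genes were higher and 14.5% lower without overlap. A lone library overlaps less easily with 2 others, and no share over all genes is given for that setting. The 78 to 105 genes therefore do not show a larger difference. For the changes other than fewer cells or libraries, the cause was not tested. Over the NK cells of a library, 3 UMIs correspond to 3.53 to 8.30 CPM, and levels below that could not be told from 0.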
